A study of Homo sapiens with 9 samples.

Results

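The regions described here are the SWI/SNF binding sites that the authors assigned to microRNA genes in HepG2, an established human liver cancer cell line. They are the peaks of ARID1A, ARID1B and ARID2 whose nearest gene name began with MIR and a digit, or with MIRLET, leaving out host genes whose names end in HG. This rule took 338 of 34575 ARID peaks, carrying 143 of the 12428 gene names in the lists. HepG2 chromatin was cut with micrococcal nuclease and immunoprecipitated with an antibody to 1 of 4 subunits, with 2 replicates per antibody and 1 input library, 9 libraries in all. ARID1A, ARID1B and ARID2 are alternative subunits, 1 to each complex, that mark different forms of SWI/SNF, a remodeler of nucleosomes, and SNF5 (SMARCB1) is a core subunit. Each antibody gave 1 peak list called on merged replicates, so the values below have no replicate error, the depth behind them is unknown, and a subunit cannot be told apart from its antibody. All of them describe 1 cell line, and no microRNA level was measured.

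MicroRNAs are short RNAs cut from hairpins in longer transcripts by Drosha and Dicer and loaded onto Argonaute proteins. The seed, bases 2 to 8 counted from the 5′ end of the mature microRNA, pairs with messenger RNAs and lowers their translation or stability. Many hairpins lie in introns or exons of a host gene and share its promoter, so the start site that controls a microRNA can be far from its hairpin. In liver and liver tumours, miR-21 is known as a growth-promoting microRNA, and miR-148a, miR-22 and miR-26 are abundant in hepatocytes.

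The mature sequences on which the loci below turn are printed from the RefSeq table for GRCh38.p14, 5′ to 3′, with the seed in capitals. The table held a mature entry for 123 of the 143 names, and these 168 mature sequences had 153 distinct seeds. They are shown first for 3 pairs of names with a shared seed, those of miR-193a, miR-663a and miR-5189:
hsa-miR-193a-3p: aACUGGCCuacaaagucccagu
hsa-miR-193b-3p: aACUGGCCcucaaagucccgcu
hsa-miR-663a: aGGCGGGGcgccgcgggaccgc
hsa-miR-1908-5p: cGGCGGGGacggcgauugguc
hsa-miR-5189-5p: uCUGGGCAcaggcggauggacagg
hsa-miR-3187-5p: cCUGGGCAgcguguggcugaagg
The next 4 belong to the names with the most peaks and to the hairpin crossed by all 3 ARIDs:
hsa-miR-21-5p: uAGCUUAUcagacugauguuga
hsa-miR-3193: uCCUGCGUaggaucugaggagu
hsa-miR-3615: uCUCUCGGcuccucgcggcuc
hsa-miR-3175: cGGGGAGAgaacgcagugacgu
The last 8 are members of the microRNA families listed for liver, growth control and epithelium that had a peak of their own:
hsa-miR-148a-3p: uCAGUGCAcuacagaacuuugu
hsa-miR-22-3p: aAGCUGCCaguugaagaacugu
hsa-miR-26b-5p: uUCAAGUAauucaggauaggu
hsa-miR-29b-3p: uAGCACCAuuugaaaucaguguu
hsa-let-7i-5p: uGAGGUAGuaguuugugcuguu
hsa-miR-92a-3p: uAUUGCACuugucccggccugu
hsa-miR-145-5p: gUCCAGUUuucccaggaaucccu
hsa-miR-200b-3p: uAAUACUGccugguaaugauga
The seeds of these 8 all differ from each other.

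MicroRNA peaks made up 91 of 12852 ARID1A peaks (0.708%), 118 of 8728 ARID1B peaks (1.35%) and 129 of 12995 ARID2 peaks (0.993%). They carried 69, 83 and 89 names. Of the 143 names, 27 had a peak in all 3 lists (18.9%, Wilson 95% interval 13.3 to 26.1), beside 21.1% of all names. The ARID1A list alone held 17 names, the ARID1B list alone 31 and the ARID2 list alone 24. Of the names in a pair of lists and not in the other, 19 were shared by ARID1A and ARID2, 19 by ARID1B and ARID2, and 6 by ARID1A and ARID1B. Most names were represented by few peaks, with 66 names assigned 1 peak, 29 assigned 2 and 25 assigned 3.

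The microRNA peaks lay farther from their assigned gene than the peaks of the same list as a whole. The median deposited distance was 1475 bp for ARID1A (235 bp over all its peaks), 4282 bp for ARID1B (2636 bp) and 1370 bp for ARID2 (423 bp). The deposited promoter class, which holds distances under 1000 bp, took 41 of 91 ARID1A peaks (45.1%, 35.2 to 55.3), against 72.6% of all ARID1A peaks. It took 26 of 118 ARID1B peaks (22.0%, 15.5 to 30.3), against 37.9%, and 55 of 129 ARID2 peaks (42.6%, 34.4 to 51.3), against 67.0%. In each list the interval lay below the share over all peaks. The distal class was fuller instead, with 26.4% of ARID1A, 36.4% of ARID1B and 27.9% of ARID2 microRNA peaks, against 12.6%, 25.8% and 13.6% of all peaks. A peak near a hairpin but nearer to another gene start carries another name and is outside this set. The distances and classes therefore depend on the rule for names, and how far was not tested.

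Where the annotation allowed a check, the deposited distance ran from the middle of the peak to the 5′ end of the hairpin itself: name and position matched within 5 bp for 288 of the 338 peaks. For these peaks the promoter class means nearness to a hairpin and not to the start of the transcript that carries it. Among the 122 promoter-class microRNA peaks, 76 (62.3%, 53.4 to 70.4) also lay within 1000 bp of the start of a protein-coding or long noncoding gene. Of the microRNA peaks in other classes this held for 3 of 50 for ARID1A, 3 of 92 for ARID1B and 5 of 74 for ARID2. Some further peaks could be placed only on a hairpin of another name at the deposited distance. With these included, the middle of the peak was upstream of the hairpin for 129 of 305 peaks (42.3%, 36.9 to 47.9). A hairpin was crossed by 45 of the 338 peaks.

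**Figure D1:**
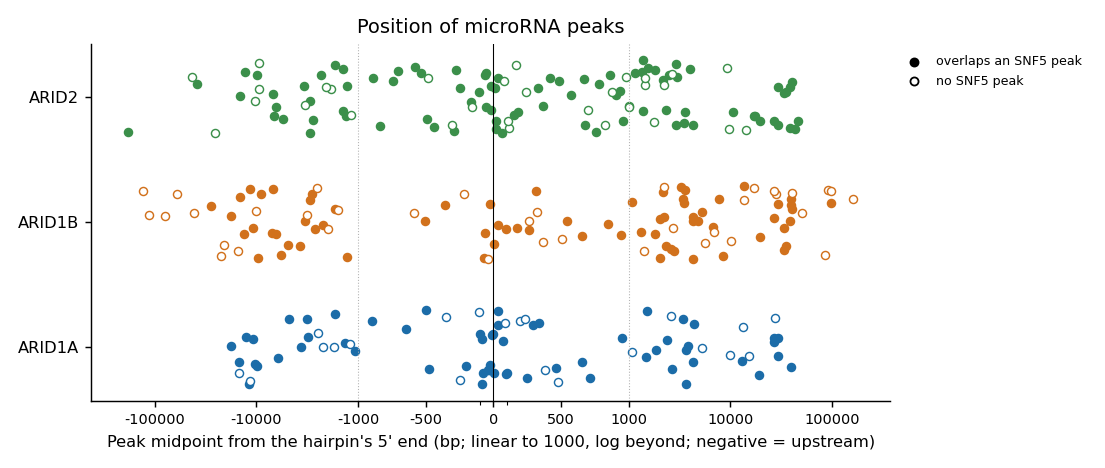
Position of each microRNA peak relative to the 5′ end of the hairpin at its deposited distance, by ARID list, with negative values upstream in the direction of the hairpin. For some peaks that hairpin carries another name than the assigned one. Filled points overlap an SNF5 peak and open points do not; 129 of the 305 peaks that could be placed lie upstream.

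SNF5 lay under most microRNA peaks. An SNF5 peak shared at least 1 bp with 69 of 91 ARID1A (75.8%, 66.1 to 83.5), 80 of 118 ARID1B (67.8%, 58.9 to 75.6) and 96 of 129 ARID2 microRNA peaks (74.4%, 66.3 to 81.2). Over all peaks the shares were 71.3%, 62.9% and 67.2%, inside each of these intervals. The median SNF5 peak score (deposited by the authors as their peak caller gave it) under them was 25, 25 and 24, beside 23, 24 and 23 over all peaks of each list.

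A peak of another ARID overlapped 49 of 91 ARID1A (53.8%, 43.7 to 63.7), 47 of 118 ARID1B (39.8%, 31.5 to 48.8) and 58 of 129 ARID2 microRNA peaks (45.0%, 36.6 to 53.6), near the 47.6%, 40.1% and 46.9% of all peaks. ARID1A differed from its list in the overlap with both other ARIDs, which 25 of its 91 microRNA peaks had (27.5%, 19.4 to 37.4), against 13.7% of all ARID1A peaks. The same count was 24 of 118 for ARID1B (20.3%, 14.1 to 28.5; 19.2% over all) and 24 of 129 for ARID2 (18.6%, 12.8 to 26.2; 13.0% over all). Overlap with ARID1B was found for 32 of the 91 ARID1A microRNA peaks (35.2%, 26.1 to 45.4), against 20.9% of all ARID1A peaks. Counting each gene name of a list once, since peaks of 1 gene are not independent, 20 of 69 ARID1A microRNA names had such a peak (29.0%, 19.6 to 40.6), against 18.0% of all ARID1A names. The shares were 22.9% (15.2 to 33.0) against 25.2% for ARID1B and 22.5% (15.0 to 32.2) against 18.2% for ARID2. None of these overlap shares is matched for class, and in each list the microRNA peaks were less often in the promoter class. Peaks of all 3 ARIDs were unevenly spread over genes: of the 73 microRNA peaks that overlapped both other ARIDs, 25 were assigned to MIR21, MIR3193, MIR3615 or MIR1208.

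**Figure D2:**
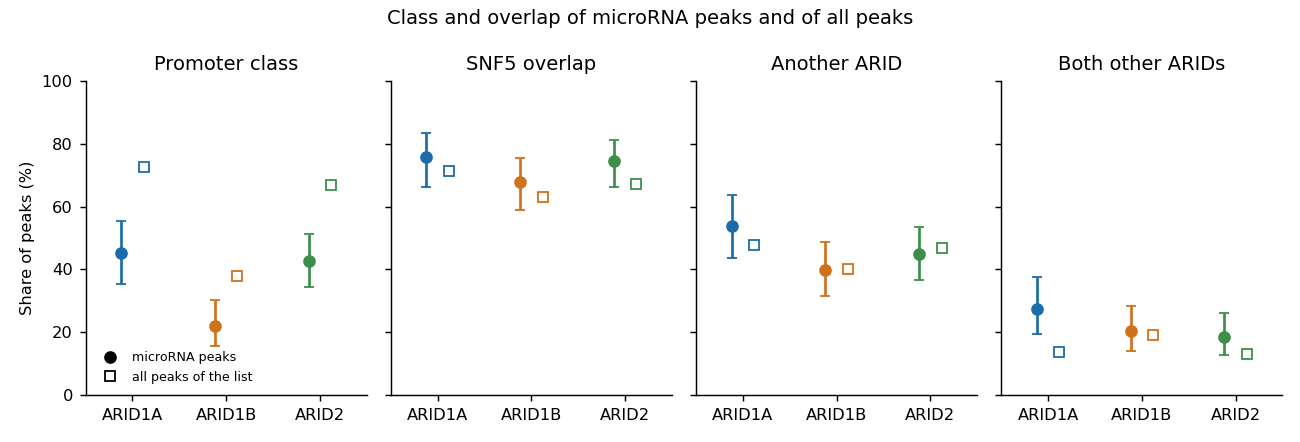
Share of peaks in percent, for microRNA peaks (filled circles, bars are Wilson 95% intervals) and for all peaks of the same ARID list (open squares), for the promoter class and 3 kinds of overlap of at least 1 bp. The microRNA circles lie below the squares for the promoter class in all 3 lists, and above the square for overlap with both other ARIDs in the ARID1A list.

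With or without another ARID, the microRNA peaks showed the split in SNF5 that the whole lists showed. SNF5 overlapped 45 of 49 ARID1A, 46 of 47 ARID1B and 55 of 58 ARID2 microRNA peaks that another ARID also overlapped (91.8%, 97.9% and 94.8%; 89.0%, 90.4% and 88.4% over all such peaks). Among the peaks with no other ARID it overlapped 24 of 42, 34 of 71 and 41 of 71 (57.1%, 47.9% and 57.7%; 55.1%, 44.5% and 48.5% over all). Overlapping peaks of different lists were also merged, which left neighbouring peaks of 1 gene as separate regions. The microRNA peaks formed 246 regions, of which 31 held all 3 ARIDs (12.6%, 9.02 to 17.3), against 7.55% of all 25247 ARID regions. SNF5 overlapped 30 of these 31 regions. A region was counted here when any of its peaks had a microRNA name, so regions of several ARIDs had more chances to be counted. The shares of regions depend on this rule. Regions of ARID1A alone were 42 of the 246 (17.1%, against 26.7% of all), those of ARID1B alone 71 (28.9%, against 20.7%) and those of ARID2 alone 71 (28.9%, against 27.3%).

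Chromosome 17 held 60 of the 338 microRNA peaks (17.8%, against 8.56% of all ARID peaks), and chromosome 16 held 40 (11.8%, against 7.06%). Peaks of 1 gene are not independent, and these shares rest in part on a few names. The chromosome 17 peaks were under 12 of the 143 names, with 17 at MIR21 and 11 at MIR3615. On chromosome 16, 5 peaks were assigned to MIR3680-1 and 9 to MIR3680-2, which are near-identical copies. Chromosome 1 held 19 (5.62%, against 9.07%) and chromosome 6 held 13 (3.85%, against 8.10%). MIR21, MIR3615, MIR193A, MIR3676, MIR4734 and MIR4316 were among the chromosome 17 names.

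The names assigned a peak in all 3 lists, with at least 1 peak that overlapped both other ARIDs, numbered 19, and 9 names had a peak from the fixed lists of microRNA families. MIR21 led by number of peaks. Its hairpin lies at chr17:57918627-57918698 (hg19, plus strand) in VMP1, a gene of autophagy whose last part overlaps the microRNA's own transcript. It was assigned 6 ARID1A, 3 ARID1B and 8 ARID2 peaks, and all 17 fell in 1 SNF5 peak of 10497 bp with score 27, which ran from -4071 to 6425 bp around the 5′ end of the hairpin. No ARID peak assigned to it covered the hairpin. Counted from the hairpin's 5′ end, the ARID1A peaks stopped at -223 bp and resumed at 190 bp, and the ARID2 peaks stopped at -702 bp and resumed at 285 bp. The nearest ARID1B peak began at 956 bp, and no ARID1B peak assigned to MIR21 lay upstream. The widest ARID1A peak assigned to a microRNA name, 1518 bp, lay 1926 to 3443 bp downstream of this hairpin. Part of this locus was repeated sequence. Of the stretches of 31 bases within each MIR21 peak, the share found once in the genome ran from 0.0% to 100%, and it was under 50% in 5 of the 17 peaks.

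**Figure D3:**
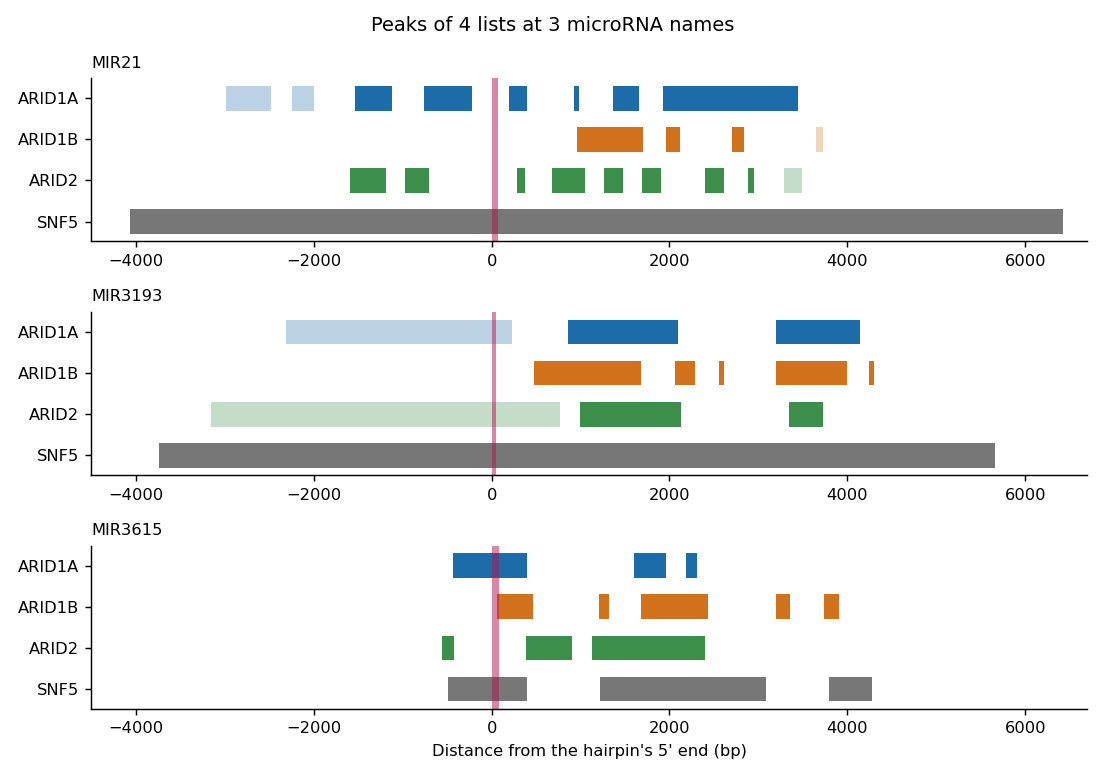
Peaks of the 3 ARIDs and SNF5 at MIR21, MIR3193 and MIR3615, as distance in bp from the 5′ end of the hairpin. Dark bars are peaks assigned to the microRNA, pale bars are peaks assigned to another name, and the red mark is the hairpin; at MIR21 the ARID bars flank the hairpin on both sides and leave it uncovered.

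MIR3193 and MIR3615 had wide peaks of all 3 ARIDs. MIR3193, at chr20:30194989-30195043 (plus strand), lies near ID1, a regulator that binds and blocks basic helix-loop-helix factors. It was assigned 2 ARID1A, 5 ARID1B and 2 ARID2 peaks, all downstream and all in 1 SNF5 peak of score 38, and 7 of the 9 overlapped both other ARIDs. One of them, 1199 bp at chr20:30195469-30196667, was the widest ARID1B peak assigned to a microRNA name. The ARID1A and ARID2 peaks that crossed this hairpin were assigned to other names. MIR3615, at chr17:72744752-72744838 (plus strand), lies at the start of NHERF1, a scaffold protein of the apical membrane. It carried 11 peaks, 5 of them from the ARID1B list and 3 from each of the others, of which 10 overlapped SNF5 and 7 overlapped both other ARIDs. The widest ARID2 peak assigned to a microRNA name, 1270 bp at chr17:72745886-72747155, was among them. For 9 of these 11 peaks the deposited distance ran from another start than the hairpin given in the annotation used here.

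Of the 1325 microRNA genes in the Gencode v44 annotation of this genome build, 55 had a hairpin crossed by a peak of any ARID under any assigned name, and 1, MIR3175, had a hairpin crossed by all 3. MIR3175 lies at chr15:93447629-93447705 (plus strand) in CHD2, a chromatin remodeler of another family. Its ARID1A peak was 736 bp, its hairpin-crossing ARID1B peak 317 bp and its ARID2 peak 606 bp, with SNF5 at score 22. The 3 peaks shared 276 bp at chr15:93447410-93447685, shown plus strand because it holds most of the hairpin of the miR-3175 sequence printed above:
MIR3175 shared stretch: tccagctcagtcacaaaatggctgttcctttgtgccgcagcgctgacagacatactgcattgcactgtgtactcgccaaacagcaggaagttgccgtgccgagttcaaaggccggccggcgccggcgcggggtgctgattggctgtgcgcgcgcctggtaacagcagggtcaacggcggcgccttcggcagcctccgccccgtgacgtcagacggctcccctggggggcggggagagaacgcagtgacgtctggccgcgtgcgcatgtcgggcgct
Every stretch of 31 bases in its 4 peaks was found once in the genome.

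MIR663A gave the highest SNF5 score under any microRNA peak. Its ARID1A, ARID1B and ARID2 peaks were 566, 284 and 262 bp wide at deposited distances of 191, 48 and 45 bp, and the SNF5 score there was 106, against a median of 22 over the 121 SNF5 peaks that overlapped a microRNA peak. The shared 262 bp at chr20:26188831-26189092 had a GC content of 72.9% and lay in an exon of MIR663AHG, the host transcript. MIR1908, whose seed is the same, had 1 ARID2 peak of 561 bp across its hairpin, in FADS1, a fatty acid desaturase. That peak also overlapped ARID1A, with SNF5 at score 21. The name MIR1908 was in the ARID2 list alone, and MIR663A was in all 3.

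The names of the miR-193 pair also differed in the lists that held them, though both were in the ARID2 list. MIR193A, at chr17:29887015-29887102 (plus strand), was assigned 6 peaks, 1067 to 10254 bp upstream of the hairpin. A peak of each ARID, from 167 to 282 bp wide, met about 10 kb upstream in an SNF5 peak of score 36. Their common 60 bp at chr17:29877124-29877183 is shown plus strand, with the matches to the tRNA gene B box in capitals (both strands searched), the internal promoter element read by RNA polymerase III factors:
MIR193A shared stretch: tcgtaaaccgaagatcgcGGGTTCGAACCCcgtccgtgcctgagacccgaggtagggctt
This motif was in the 300 bp around the middle of 2 of 91 ARID1A, 5 of 118 ARID1B and 5 of 129 ARID2 microRNA peaks, and in 2.12%, 1.62% and 1.61% of all peaks. For ARID1B and ARID2 the microRNA shares were 4.24% and 3.88%. The microRNA peaks with it were assigned to MIR193A, MIR3143, MIR3675, MIR3676, MIR4720, MIR4792 and MIR5093. The motif was searched for after this stretch had been read. The MIR193A peaks that share the stretch are among the peaks counted in each list. Overlapping peaks of different lists were also counted in each, for MIR3143 (ARID1A and ARID2) and MIR3675 (ARID1B and ARID2). The microRNA shares therefore include the peaks that prompted the search, and whether the motif is more frequent in microRNA peaks was not tested. MIR193B was assigned 3 ARID2 peaks 17, 289 and 704 bp from its hairpin, all with SNF5 at score 19 and none overlapping another ARID. An ARID1A peak with another name lay 2557 bp from the edge of the MIR193B hairpin.

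**Figure D4:**
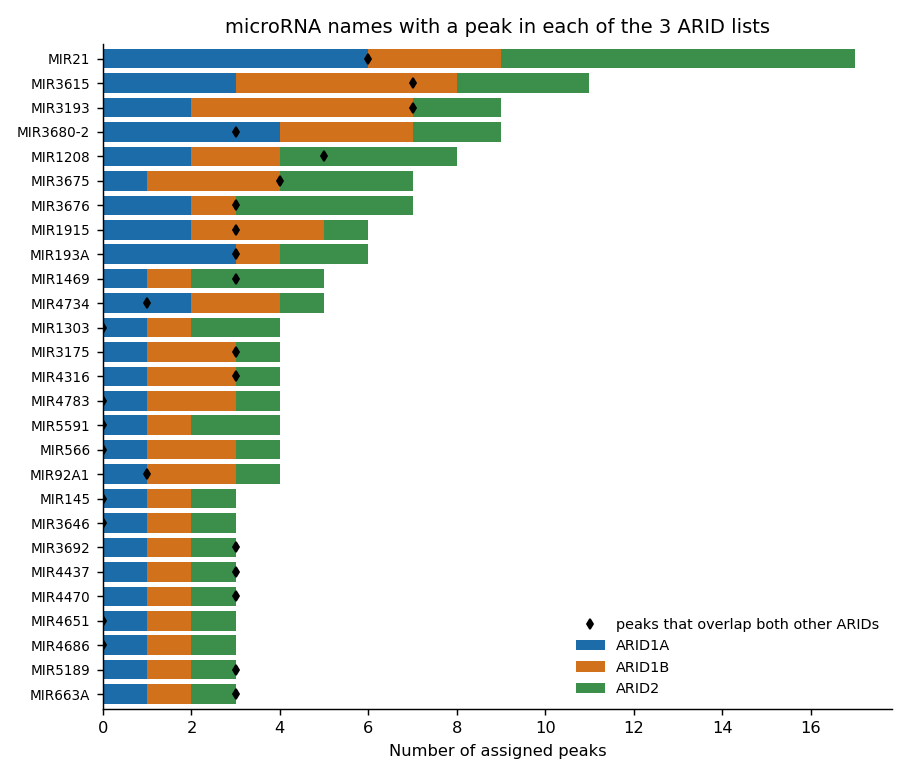
Number of peaks assigned to each of the 27 microRNA names found in all 3 ARID lists, stacked by list (ARID1A blue, ARID1B orange, ARID2 green), with a black diamond at the number of its peaks that overlap both other ARIDs. MIR21 has the most peaks, 17, and MIR3615 and MIR3193 have the most that overlap both other ARIDs, 7 each.

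At other names the shared peaks lay far from the hairpin. MIR5189 had 1 peak in each list, 903, 795 and 481 bp wide, 19273 to 19547 bp from its hairpin in ZFPM1, a GATA cofactor, with SNF5 at score 38. MIR3187, whose seed is the same, had 1 ARID1A peak at 2452 bp without SNF5. MIR4316, in SEPTIN9, a cytoskeletal GTPase gene, had peaks of all 3 ARIDs over chr17:75388715-75388881, with SNF5 at score 25. This stretch is shown plus strand for its match, in capitals, to the HNF4 motif CAAAGTCCA (both strands), HNF4 being a nuclear receptor of hepatocytes:
MIR4316 shared stretch: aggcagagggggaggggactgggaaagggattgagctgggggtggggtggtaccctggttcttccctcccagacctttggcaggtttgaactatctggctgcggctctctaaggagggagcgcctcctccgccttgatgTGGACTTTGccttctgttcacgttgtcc
In the same windows this motif was in 3 of 91 ARID1A, 4 of 118 ARID1B and 2 of 129 ARID2 microRNA peaks (3.30%, 3.39% and 1.55%), against 0.770%, 1.90% and 0.962% of all peaks. The counts are small, and the matches belonged to MIR3161, MIR3615, MIR4316, MIR5189 and MIR548H2.

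The AP-1 motif TGANTCA was in 7.69%, 14.4% and 9.30% of ARID1A, ARID1B and ARID2 microRNA peaks (6.48%, 9.69% and 6.86% of all peaks). The FOXA motif TGTTTAC was in 3 of 91, 11 of 118 and 12 of 129 of them (3.30%, 9.32% and 9.30%; 3.53%, 6.07% and 4.19% of all peaks). AP-1 factors respond to growth signals, and FOXA factors open chromatin in liver cells. The motif of NRF1, a factor of housekeeping promoters, was in 1, 0 and 2 of them (1.94%, 0.722% and 1.85% of all peaks), which is near the shares of the lists. These motif shares, like those given above, are not matched for class. In each list the microRNA peaks were less often in the promoter class than all peaks.

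The remaining names with peaks of all 3 ARIDs together were spread over several kinds of gene. MIR1469 lies by NR2F2, an orphan nuclear receptor: its ARID1A, ARID1B and ARID2 peaks at 80, 366 and 164 bp overlapped each other without an SNF5 peak. MIR1915 was assigned 6 peaks, all with SNF5 at score 23, and an ARID1B peak crossed its hairpin. MIR3692, in ZDHHC14, a palmitoyltransferase gene, had 1 peak of each ARID 2212 to 2402 bp away, with SNF5 at score 30, and the ARID1B peak was 1042 bp wide. MIR4734 had a 1050 bp ARID1A peak that overlapped both other ARIDs 715 bp from its hairpin. MIR3676 was assigned 7 peaks, 5 of them with SNF5 at score 25. MIR1208 had 8 peaks in PVT1, a long noncoding RNA gene, and MIR4470 was the last of these names.

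Sequence copies limited some of these assignments. MIR4437 was assigned 1 peak of each ARID, 56, 58 and 58 bp wide and 29821 to 29825 bp from the hairpin, with SNF5 at score 47. In these 3 peaks no stretch of 31 bases was found once in the genome, and the median number of copies was 651 to 656. MIR3675 was assigned 7 peaks in which 0.0% to 39.7% of such stretches were found once. MIR3680-2 was assigned 9 peaks in which this share was 5.9% to 65.8%, and with MIR3680-1 it forms a pair of near-identical copies, so its name is uncertain. Counting as mostly repeated a peak in which under 50% of the stretches were found once, these made up 11 of 91 ARID1A (12.1%), 27 of 118 ARID1B (22.9%) and 19 of 129 ARID2 microRNA peaks (14.7%), against 5.98%, 21.3% and 5.73% of all peaks. Without them, 21 of 80 ARID1A microRNA peaks overlapped both other ARIDs (26.2%, 17.9 to 36.8), against 13.4% of all such ARID1A peaks. The ARID1A share thus stayed above its list.

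**Figure D5:**
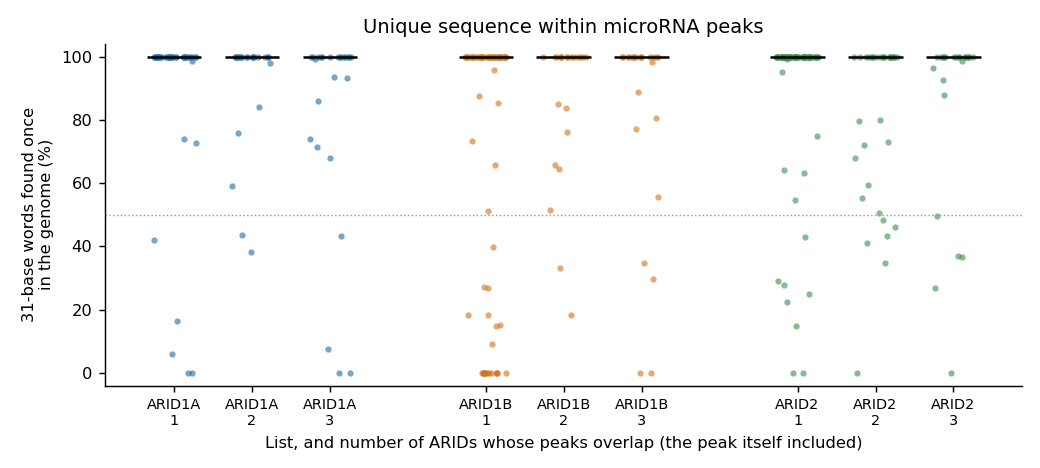
Percent of the stretches of 31 bases in each microRNA peak that occur once in the genome, by ARID list and by the number of ARIDs whose peaks overlap there (1 to 3, the peak itself included). The black line is the median of each column, at 100%, and the dotted line at 50% sets off the 57 of 338 peaks counted as mostly repeated.

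Among 21 liver-enriched microRNAs, 5 were assigned a peak: MIR21, MIR148A, MIR22, MIR26B and MIR29B1. Of all 1325 microRNA genes of the annotation, 9.89% were assigned one. This base differs, since the annotation held 14 of the 21, among them MIR21, MIR148A and MIR26B but not MIR22 or MIR29B1. MIR148A, at chr7:25989539-25989606 (minus strand), had no ARID1A peak. Its ARID1B peaks lay 1281 and 2823 bp upstream and its ARID2 peaks 1275 and 1826 bp upstream, and the nearer of each pair began at the same base and overlapped SNF5 at score 22. MIR22, whose microRNA is abundant in liver, had an ARID1B peak at 837 bp and an ARID2 peak at 1090 bp, both overlapping 1 ARID1A peak named for its host gene, MIR22HG, with SNF5 at score 27. MIR26B, at chr2:219267369-219267445 (plus strand) in CTDSP1, a phosphatase gene, had ARID1A peaks at 474 and 3800 bp and an ARID2 peak at 4032 bp. ARID1B peaks within 5000 bp of it were assigned to CTDSP1, the nearest 1713 bp from the edge of the hairpin. MIR29B1 had 1 ARID1A peak at 403 bp without SNF5. MIR3646, named here after its values were seen, lies in an intron of HNF4A, a transcription factor of hepatocyte identity. Its ARID1A and ARID1B peaks at 3425 and 3412 bp overlapped each other, its ARID2 peak at 2937 bp overlapped neither, and all 3 overlapped SNF5 at score 25. MIR122, the dominant hepatocyte microRNA, had no ARID peak within 5000 bp, whatever the assigned name.

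The other families were represented by 1 name each, too few to set a family apart from microRNA genes in general. Of all 1325 microRNA genes of the annotation, 9.89% were assigned a peak. The annotation lacks some of the names listed here, MIR92A1 and MIR145 among them. MIRLET7I was the only name of 18 in the let-7 family and its cluster partners, with an ARID1A peak of 53 bp at 34 bp and an ARID2 peak at 479 bp, neither overlapping another ARID. An ARID1B peak with another name lay 168 bp from the edge of its hairpin. Of the 19 microRNAs listed as growth-promoting, only MIR92A1 was assigned peaks. MIR21, described above as growth-promoting, was listed with the liver-enriched microRNAs instead. MIR92A1 had 4 peaks, 10373 to 10739 bp away in sequence of 25.9% to 32.5% GC, with SNF5 at score 21. Its ARID2 peak overlapped both other ARIDs. Of 11 microRNAs linked to p53 or growth restraint, only MIR145 was assigned peaks, with ARID1A at 41 bp, ARID1B at 21925 bp and ARID2 at 22532 bp. Of 6 epithelial microRNAs, only MIR200B was, with an ARID1A peak 2234 bp upstream that overlapped no SNF5 peak. An SNF5 peak lay 705 bp from the edge of the MIR200B hairpin and overlapped the MIR200A hairpin. Peaks assigned to other names also lay near some of these genes. Counted whatever the name, an ARID peak lay within 5000 bp of 5 of the 5 epithelial microRNA genes in the annotation, 3 of 12 growth-promoting, 3 of 7 p53-linked or growth-restraining, 6 of 14 liver-enriched and 1 of 18 let-7 family genes and partners, beside 17.1% of all microRNA genes. The epithelial genes rested on 2 clusters with 1 peak each: an ARID1A peak near MIR200B, MIR200A and MIR429, and an ARID2 peak near MIR200C and MIR141. Neighbours shared peaks in the other families too, as MIR106B, MIR93 and MIR25 did.

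Of 19 genes for microRNA processing and silencing, 13 were assigned an ARID peak, 12 of them with a promoter peak, and 5 had one in each list. Among all 20136 protein-coding genes, 40.8% were assigned a peak by a name that matched, 36.1% a promoter peak and 9.42% a peak in each list; these shares are low where the lists use older names. ARID1A and ARID2 peaks were assigned to 11 each and ARID1B peaks to 6. XPO5 and RAN, which export microRNA precursors from the nucleus, PRKRA, a Dicer partner, and the helicases DDX5 and DDX17, which work with Drosha, had peaks in all 3 lists. DROSHA, AGO1, AGO4, TNRC6C, LIN28A and LIN28B were assigned none, but peaks with other names lay within 5000 bp of AGO1, TNRC6C and LIN28A. Whatever the name, 16 of the 19 genes had a peak within that distance, beside 53.5% of protein-coding genes. As a check of the cell type, 10 of 12 hepatocyte and HepG2 marker genes were assigned a peak, among them APOB, AFP, FOXA1 and FOXA2 in all 3 lists.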

How the data were processed

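Chromatin of HepG2 cells was immunoprecipitated for ARID1A, ARID1B, ARID2 and SNF5 in 2 replicates each, with 1 input library that was not used here. Samples were grouped by the antibody in their titles. According to the study's methods, the authors aligned reads to hg19 with bowtie2, filtered duplicates, merged replicates with samtools, called broad peaks with MACS2, joined neighbouring peaks, removed blacklisted regions, and assigned the nearest gene from Gencode v16. The deposited SNF5 list carries a peak score from the caller, and the ARID lists carry a class, a nearest gene and a distance, but neither file type has counts, and library depth is unknown. The deposited chromatin states were not used, because peaks of ARID1A and ARID1B that overlapped reciprocally by at least 50% carried the same state in 45.0% of 675 cases, whereas the feature class matched in 98.7%.

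Peaks were chosen by the deposited gene name. Overlap was at least 1 bp, shares carry Wilson 95% intervals that cover counting error over peaks only, and no test was made, since each antibody gave 1 list. Starts are counted from 1. Hairpins and genes came from Gencode v44 on GRCh37 (the hg19 assembly), mature sequences from RefSeq (GRCh38.p14). Motifs were searched on both strands in the 300 bp around the middle of each peak, so the flanks of shorter peaks were included. Every 31-base word of a peak was counted in the genome on both strands. The names described are those with a peak in each ARID list and at least 1 that overlapped both other ARIDs, members of the fixed lists with a peak, the widest peak per list and the highest SNF5 score, sharers of a seed with these, and the 5 names with most peaks. The microRNA peaks and the gene lists were chosen with earlier results of these data known, and the B box motif and the 31-base words after the sequences had been read. Overlap and word counting were tested on simulated data. Python 3.11.15 was used with pandas 2.3.3, numpy 2.4.6, statsmodels 0.14.6 and matplotlib 3.10.9. Alternatives covered the rule of overlap, the distance in place of the class, the names counted and repeated sequence. Some items are not reported here.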

Additional observations from a re-analysis of the deposited data

Results flagged for a closer look

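The lists also hold peaks assigned to microRNA genes written in another way, as hsa-mir names, which the rule for names left out: 7 ARID1A and 6 ARID2 peaks, beside 3 ARID1B peaks. They were singled out because they lie in data outside the comparisons above, and no control list was available to set them against. Of these peaks, 6 were assigned to hsa-mir-3180-3 and 2 to hsa-mir-3180-4, which belong to a set of near-identical copies on chromosome 16, so their positions are uncertain. Both peaks of hsa-mir-146a were in the ARID2 list, at 6 and 1487 bp.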

How the results depend on the processing

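Of 74 alternatives over 14 results, 46 left the value within its 95% interval, or within 1.5 times for counts, and 28 moved it. No paired analysis was possible because both replicates of each antibody were merged into 1 list, and leaving out a replicate could not be run for the same reason. A distance of at most 5000 bp in place of the promoter class gave 74.7% of ARID1A, 53.4% of ARID1B and 72.9% of ARID2 microRNA peaks. A limit of 500 bp gave 15.3% of those of ARID1B and 27.9% of those of ARID2. Shares over all peaks at these limits are not given here, so these values cannot be set against the promoter shares of the lists. The upper quartile of the deposited distance was 5015, 17658 and 6731 bp for ARID1A, ARID1B and ARID2 microRNA peaks. Over all peaks of these lists it was 1270.5, 11737 and 1753 bp. The share of ARID1A, ARID1B and ARID2 microRNA peaks with SNF5 was 8.79%, 1.69% and 6.20% under a reciprocal overlap of 50% (all peaks 13.0%, 5.58% and 7.56%), 89.0%, 80.5% and 88.4% with a gap of up to 1000 bp (all 86.3%, 76.0% and 86.2%), 63.7%, 50.8% and 56.6% with midpoints within 500 bp (all 62.4%, 53.3% and 56.3%), and 65.9%, 56.8% and 58.9% with SNF5 peaks scored at or above the median of 19. The share with another ARID was 16.5%, 12.7% and 15.5% under the reciprocal rule (all 17.7%, 12.5% and 17.1%), 75.8%, 60.2% and 69.0% with the gap (all 72.7%, 58.0% and 74.6%), and 68.1%, 46.6% and 51.9% by midpoints (all 60.7%, 50.4% and 59.2%), so the ARID1A share was above its list with the gap and by midpoints and below it under the reciprocal rule. The stricter and looser rules move all peaks too, by their construction. For SNF5 peaks scored at or above the median, the share over all peaks is not given here. Leaving out mostly repeated peaks, an alternative chosen after seeing the data, raised the ARID1B share with SNF5 to 75.8%, and that of all ARID1B peaks from 62.9% to 71.1%. Counting only distances of at most 5000 bp left 63 ARID1B peaks and 93 names, and 61 ARID1B peaks lay within 1000 bp of an annotated microRNA gene, whatever their assigned name. Names in all 3 lists numbered 18 to 28 over the alternatives, beside 27. Counting names once for overlap with both other ARIDs was also added after seeing the data. The lists give neither depth nor ARID scores, so a microRNA gene without a peak may be a site below the caller's threshold.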

Other observations

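Host genes of microRNAs, whose names end in HG, carried 9 further peaks: 3 of ARID1A, 2 of ARID1B and 4 of ARID2. MIR22HG, the host transcript of the miR-22 hairpin, held 6 of them, and its ARID1A peak at chr17:1618126-1618771 overlapped peaks of both other ARIDs. MIR17HG, the host of the miR-17-92 cluster to which MIR92A1 belongs, had 1 ARID1A peak at 413 bp, in the promoter class. MIR181A2HG had an ARID1B peak and MIR7-3HG an ARID2 peak.

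Assignment by nearest name covered part of the peaks close to microRNA genes. Of the peaks within 1000 bp of a microRNA gene of the annotation, 38 of 117 for ARID1A, 25 of 61 for ARID1B and 55 of 131 for ARID2 were assigned to a microRNA name. Within 1000 bp of a peak of any ARID lay 114 of 1325 annotated microRNA genes, and within 1000 bp of peaks of all 3 lay 34. Within 5000 bp these counts were 226 and 68. The hairpin lay in a protein-coding or long noncoding gene on the same strand for 70 of the 131 names found in the annotation (53.4%, 44.9 to 61.8), against 70.0% of all 1325.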
